A study of Mus musculus with 6 samples.

Results

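H3K27me3 is the histone mark that EZH2, the methyltransferase of Polycomb repressive complex PRC2, places on chromatin, and it is found over genes that are held silent. It often lies in broad domains, whereas H3K4me3, the mark placed at active promoters, forms sharper peaks. In stem cells both marks can meet at promoters of developmental regulators, and such promoters are called bivalent. The regions described here are the H3K27me3 peaks of proliferating subventricular zone (SVZ) neural stem cell (NSC) cultures over which no H3K27me3 peak was listed after 30 h of differentiation.

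The members were chosen by the overlap of the lists themselves: of 9013 H3K27me3 peaks on chromosomes 1 to 19 in proliferating cultures, the 3371 that shared not 1 bp with a peak of the 30 h list were taken. They made up 37.4% of the peaks examined (95% Wilson interval 36.4 to 38.4%). Both values change with the part of each list that is used. When the stronger 50% of the proliferating list was used, 738 peaks of that shorter list (16.2%) were absent. With the stronger 50% of both lists 1019 (22.4%) were absent. The stronger 50% of the 30 h list alone left 4029 of the 9013 peaks absent (44.7%), and equal numbers of peaks left 3778 (41.9%). The other 5642 peaks met a 30 h peak and are called shared. Whole lists held 15187 H3K27me3 peaks at 30 h, 9470 H3K27me3 peaks in proliferating cultures and 18727 H3K4me3 peaks in proliferating cultures, or 43384 peaks in all.

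ChIP-seq recovers DNA with an antibody to a modified histone and sequences it. The 30 h cells and the proliferating cells were monolayer cultures from the SVZ of C57BL/6 mice at passages 5 to 7, and carry no labelled genetic change. According to the methods, the tissue came from young postnatal mice, proliferating cells grew in serum with EGF and bFGF, and differentiation began when both growth factors were withdrawn and serum was lowered. The H3K4me3 culture was labelled ventral and the H3K27me3 cultures were not, while its title carries the same tag, N5, as the proliferating H3K27me3 library, so whether both marks come from the same culture is unclear. Each culture well began with tissue of a single mouse, the number of mice behind a library is not stated, and such a culture may hold several cell types. Identity could not be checked by marker genes, because peaks could not be assigned to genes in build mm9.

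Each condition had 1 library and no replicate, so no difference below was tested against variation between libraries. Absence means that no peak passed the authors' threshold at 30 h; the depth of the libraries is unknown, since the lists hold no read counts. Intervals cover counting error only. The input libraries were not used, and the part of background in the absent peaks was not tested.

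Most absent peaks were weak and narrow beside the shared ones. The deposited MACS score, by which peaks are called strong or weak here, had a median of 66.9 over the absent peaks and 129 over the shared peaks. The lists begin just above a score of 50. Scores up to 60 were found in 35.2% of absent peaks and 11.3% of shared peaks, and scores above 100 in 14.0% of absent peaks and 61.1% of shared peaks. The median width was 1740 bp for absent peaks, with 90% of them between 1270.5 and 2804 bp, and 2504 bp for shared peaks. No absent peak was wider than 10 kb, against 298 shared peaks, and 8 absent peaks were wider than 5 kb, against 907 shared peaks. The absent peaks together covered 6.25 Mb and the shared peaks 21.7 Mb. A wide peak meets another list more easily than a narrow one, so width and score are not independent of the rule and are given as a description.

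**Figure D1:**
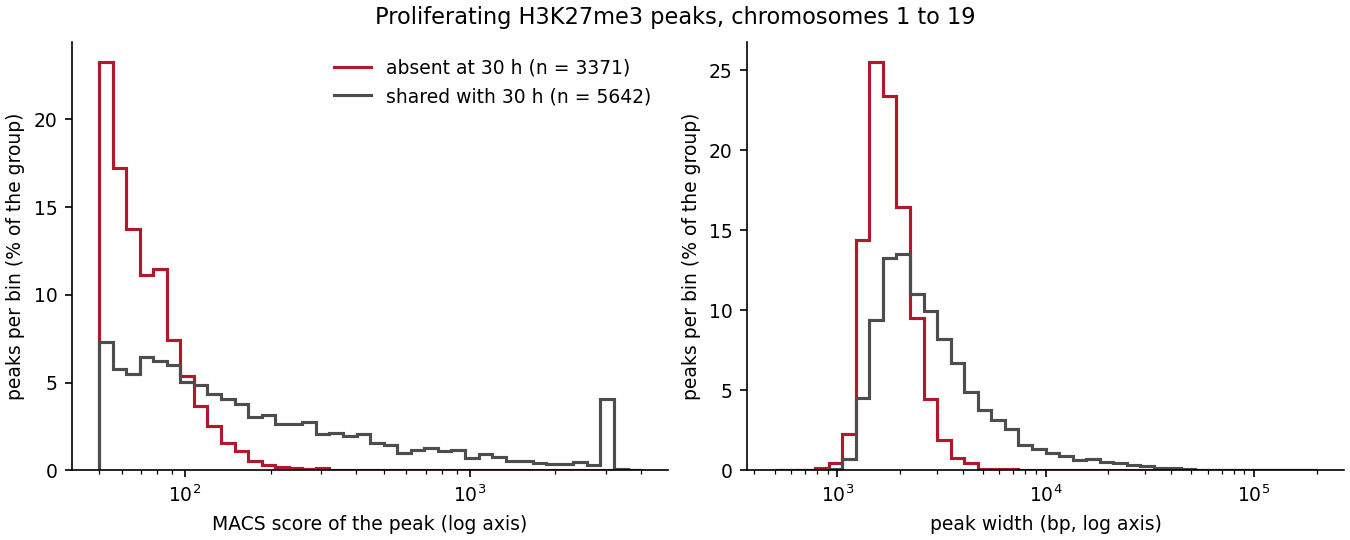
Proliferating H3K27me3 peaks on chromosomes 1 to 19 that were absent at 30 h (red) or shared with 30 h (grey): MACS score (left, log axis) and width in bp (right, log axis) against the percent of the group in each bin. Absent peaks crowd at the low end of both axes, with medians of 66.9 and 1740 bp, against 129 and 2504 bp for shared peaks, which alone extend to the highest scores and widths.

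The share of peaks that were absent dropped steeply with strength. When the 9013 peaks were ordered by score and cut into 10 groups of like size, 65.5% of the lowest group was absent (62.3 to 68.5%), 50.1% of the fifth, 26.8% of the seventh, 10.5% of the eighth and 1.33% of the ninth. In the strongest group, 1 of 902 peaks was absent (0.111%, 0.0196 to 0.625%). When ordered by width, 65.5% of the narrowest group was absent, and 0.887% of the widest, or 8 of 902 peaks. Each of these groups held both absent and shared peaks.

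**Figure D2:**
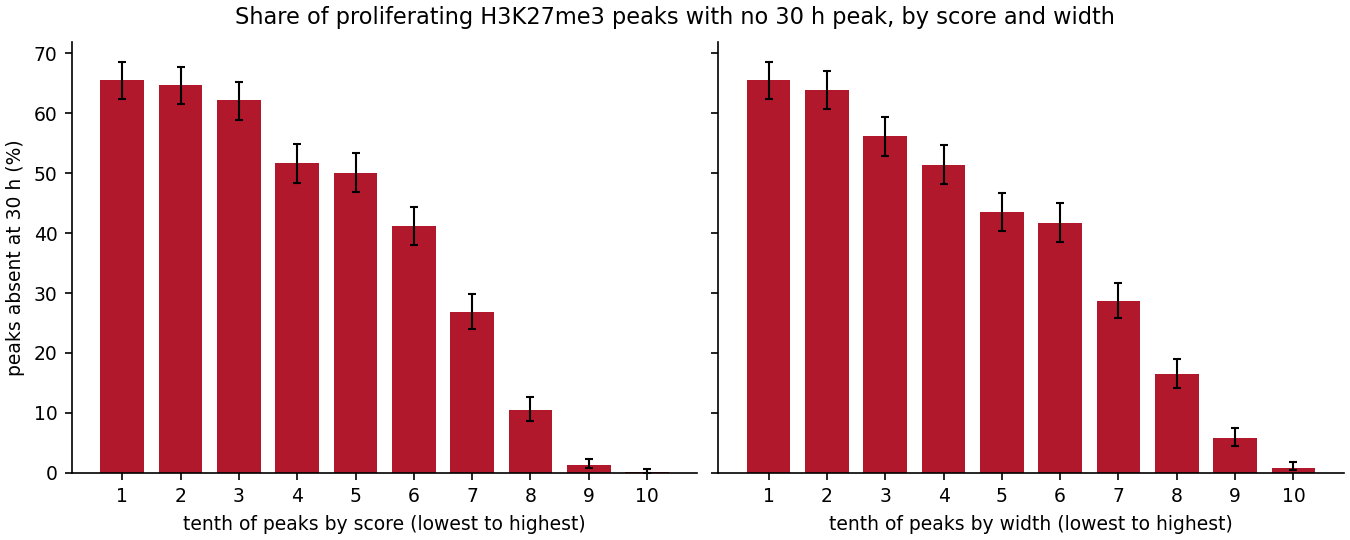
Percent of proliferating H3K27me3 peaks with no 30 h peak (y axis) in 10 equal groups by score (left) and by width (right), lowest to highest. Bars are 1 library per condition with 95% Wilson intervals, and drop to 0.111% for the highest scores and 0.887% for the widest peaks, against 65.5% in the lowest group of each.

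The upper end of the absent peaks reached the scores of shared ones, with a 95th percentile of 129.4 among absent peaks and a median of 128.9 among shared peaks. The widest and highest-scoring lay at chr12:114013727-114023462 (mm9), was 9735 bp wide, scored 858 and ranked 604th of the 9013 peaks. It carried H3K4me3 over 3415 bp, in 2 peaks that included a peak with a low score of 106, and its nearest 30 h peak was 17.6 kb away. The next lay at chr6:73236448-73244368 (7920 bp, score 492), with H3K4me3 over 1915 bp and the nearest 30 h peak at 45.1 kb. Next came chr2:94293236-94300586 (7350 bp, score 326), which held no H3K4me3 and lay 8.39 kb from a 30 h peak. The peak at chr4:107820213-107826729 (6516 bp, score 316) carried H3K4me3 over 1322 bp and was 114 kb from a 30 h peak. The fifth in width lay at chr1:34941770-34947633 (5863 bp, score 293) and the fifth in score at chr14:21072234-21076592 (4358 bp, score 306), 904 bp from a 30 h peak, and neither met H3K4me3. Among the 28 absent peaks with a score above 200, 7 overlapped H3K4me3 (25.0%, 12.7 to 43.4%), against 24 of 445 with a score between 100 and 200 (5.39%) and 102 of 2898 with a score up to 100 (3.52%). The strongest were also nearer to the 30 h list, with a median distance of 17.0 kb for scores above 200 and 198 kb for scores up to 100.

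The distance to the nearest 30 h peak ran between 5 bp and 6.14 Mb. Its median was 185 kb (169 to 202 kb), with an interquartile range of 34.5 to 580 kb. Within 1 kb of a 30 h peak lay 107 absent peaks (3.17%), within 5 kb 308 (9.14%) and within 100 kb 1289 (38.2%), while 2082 (61.8%) were farther than 100 kb and 482 (14.3%) farther than 1000 kb. At the edge of the rule, the absent peaks closest to a 30 h peak were at chr17:35497337-35499226 and chr19:6922916-6924184, each with a gap of 5 bp, followed by chr6:6886277-6887465 (7 bp), chr7:81049139-81050606 (12 bp) and chr4:130443910-130445675 (20 bp). The gap of the first led to a 30 h peak of 33650 bp with a score of 3100. Just on the other side, the shared peaks with the shortest overlap were chr8:107173195-107175616 (5 bp), chr8:112489154-112492027 (10 bp), chr3:92045340-92046637 (16 bp), chr4:62546915-62548241 (19 bp) and chr11:24220890-24222959 (32 bp). These peaks, absent or shared, scored between 51.7 and 159, and the side on which they fell rested on a few bases.

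Beyond 10 kb from the 30 h list, absent peaks were about as frequent per length of chromosome far away as closer by. The length between the first and the last peak of any list on each chromosome, 2413 Mb in total, served as the measure, and peaks were placed by their middles. Between 10 and 50 kb from a 30 h peak there were 1.46 absent peaks per Mb, between 50 and 100 kb 1.15, between 100 and 500 kb 1.34, between 500 and 1000 kb 1.34 and beyond 1000 kb 1.45. Closer in, the density was higher: 3.46 per Mb between 1 and 5 kb (252 peaks) and 2.28 between 5 and 10 kb (159 peaks). Within 1 kb it was 0.757 per Mb (19 peaks), where the room is limited by the rule, since the middle of an absent peak lies at least its own half-width from a 30 h peak. Stretches of more than 1 Mb with no 30 h peak made up 50.7% of the length and held 1772 absent peaks, 52.6% of the total.

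**Figure D3:**
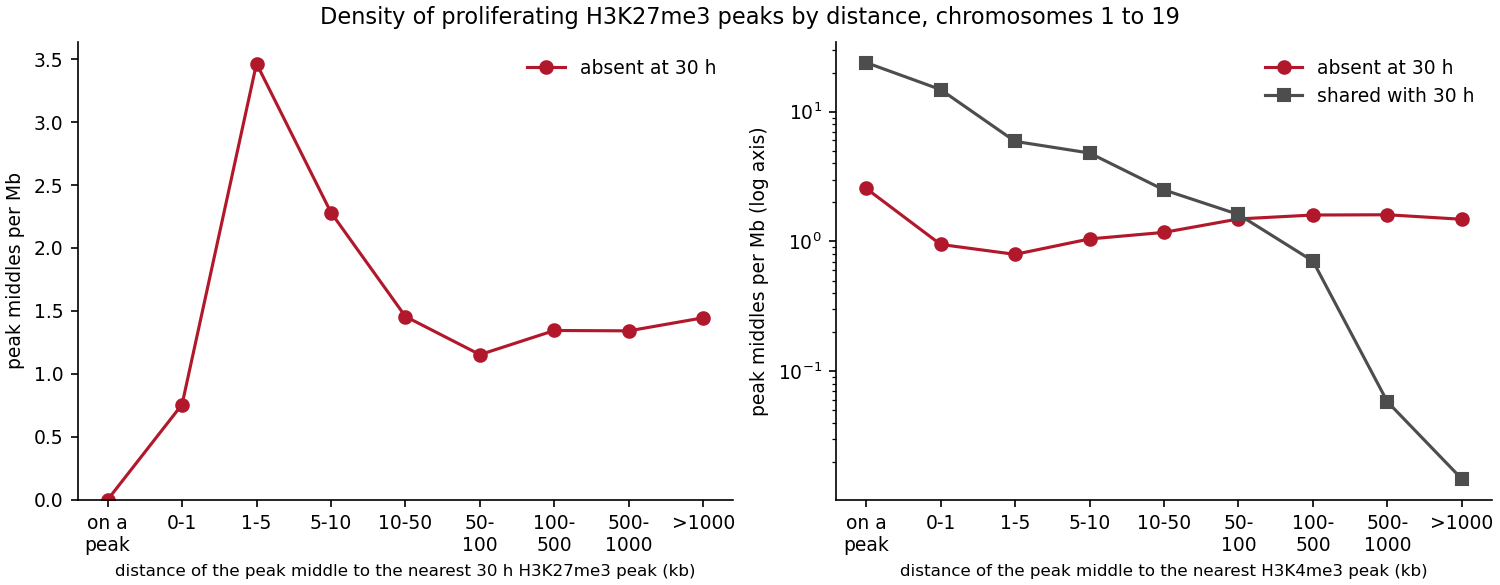
Peak middles per Mb of chromosome span (y axis; log axis on the right) by distance to the nearest 30 h H3K27me3 peak (left) and the nearest H3K4me3 peak (right), for peaks absent at 30 h (red) and, on the right, shared peaks (grey). Absent peaks range from 1.15 to 1.46 per Mb at all distances over 10 kb from 30 h peaks and from 1.48 to 1.61 per Mb beyond 100 kb from H3K4me3, where shared peaks thin out to 0.0148 per Mb.

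The 308 absent peaks within 5 kb of a 30 h peak had scores and widths close to those of the distant ones. Their median score was 67.6 and their median width 1708 bp, against 66.0 and 1724 bp for the 2082 absent peaks beyond 100 kb. The nearest 30 h peak of 100 of the 308 (32.5%) also covered another proliferating peak, while 30.4% of all 30 h peaks on these chromosomes did so. These neighbouring 30 h peaks, 299 in number, had a median width of 3229 bp, against 3233 bp for all 30 h peaks. For the other 208 absent peaks the nearest 30 h peak met no proliferating peak.

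Seen from the proliferating list itself, most absent peaks had no other peak within 10 kb. With 100 kb taken to each side of the middle, 52.3% of absent and 15.9% of shared peaks had no other proliferating peak around them. Shared peaks were also denser along the chromosomes, at 2.34 per Mb against 1.40 per Mb for absent peaks. The nearest shared peak was at a median of 484 kb, and 95 absent peaks (2.82%) had one within 5 kb. The next absent peak was at a median of 192 kb, whereas the next shared peak of a shared peak was at 6.32 kb. Another member of the same group lay within 10 kb of 9.11% of absent peaks and 55.4% of shared peaks. Joined over gaps of up to 10 kb, the absent peaks formed 3064 singles, 141 pairs, 7 groups of 3 and 1 group of 4. That group lay at chr6:25501470-25516170, held 8.36 kb of peaks and no H3K4me3, and was chosen after its values were seen.

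The chromosomes carried absent peaks at similar densities, although they differed widely in shared peaks. Absent peaks ranged from 1.18 per Mb on chromosome 12 to 1.68 per Mb on chromosome 15, and shared peaks from 1.08 per Mb on chromosome 16 to 4.43 per Mb on chromosome 11. The highest density was thus 1.43 times the lowest for absent peaks and 4.10 times for shared peaks. H3K4me3 peaks ranged from 5.43 per Mb on chromosome 1 to 11.7 per Mb on chromosome 11. Chromosome 11, the densest in shared peaks and in H3K4me3, held 144 absent and 527 shared peaks, or 21.5% absent, and chromosome 16, the sparsest in shared peaks, held 146 absent and 103 shared peaks, or 58.6% absent. The median width of absent peaks varied little, between 1643 bp on chromosome 18 and 1805 bp on chromosome 14.

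**Figure D4:**
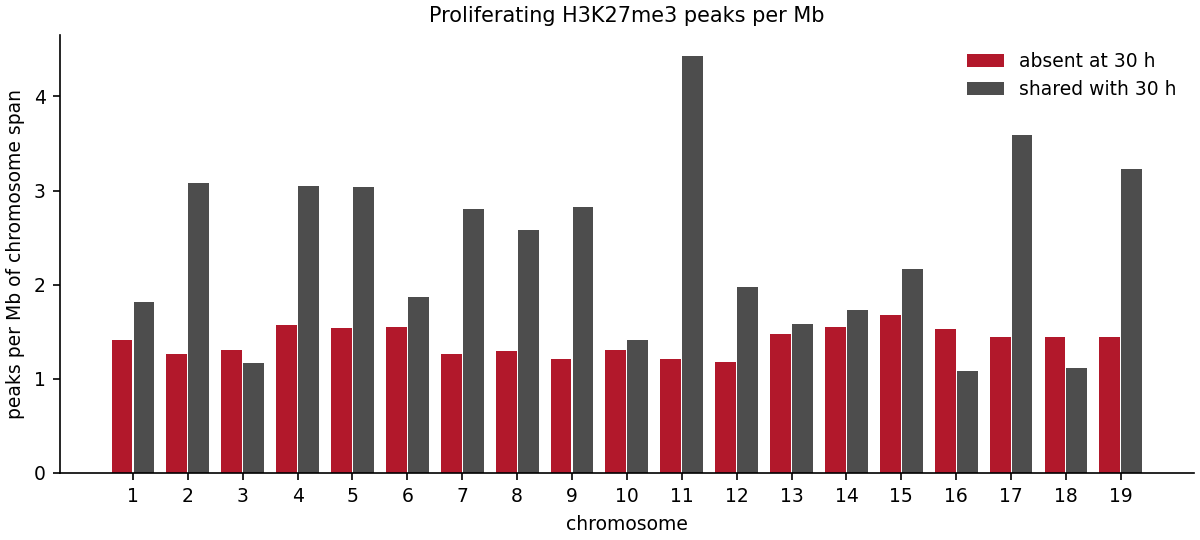
Proliferating H3K27me3 peaks per Mb of chromosome span (y axis) on chromosomes 1 to 19 (x axis), absent at 30 h (red) and shared with 30 h (grey). Red bars stay between 1.18 and 1.68 per Mb, while grey bars run from 1.08 to 4.43 per Mb.

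H3K4me3, which the rule did not use, rarely met the absent peaks. An H3K4me3 peak overlapped 133 of the 3371 absent peaks (3.95%, 3.34 to 4.66%) and 1670 of the 5642 shared peaks (29.6%, 28.4 to 30.8%), against 20.0% of all proliferating peaks on these chromosomes. The share of absent peaks depended on how much of each list was used: it was 14.8% with the stronger 50% of both H3K27me3 lists, 7.92% with the stronger 50% of the 30 h list, 6.38% with equal numbers of peaks and 1.19% with the stronger 50% of H3K4me3 peaks, and it was below that of shared peaks in each setting. Within 5 kb of H3K4me3 lay 7.77% of absent peaks and 43.0% of shared peaks. The median distance was 97.0 kb (90.6 to 103.6 kb) for absent peaks and 8.38 kb (7.57 to 9.10 kb) for shared peaks. Of the chromosome span, 1.58% lay on an H3K4me3 peak, 8.28% within 5 kb of one and 56.6% within 100 kb. Placed by their middles, 2.91% of absent peaks lay on H3K4me3, 6.88% within 5 kb and 50.5% within 100 kb. For shared peaks these shares were 16.2%, 38.6% and 89.9%. With 100 kb taken to each side of the middle, 49.8% of absent peaks and 10.2% of shared peaks had no H3K4me3 peak around them.

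Part of this contrast goes with strength, as strong H3K27me3 peaks overlapped H3K4me3 more often in both groups. The contrast was also present within groups of peaks cut by score. When the 9013 peaks were cut by score into 5 groups of like size, the overlap in the lowest was 2.98% of 1173 absent peaks (2.15 to 4.12%) and 8.43% of 629 shared peaks (6.50 to 10.9%). In the second group it was 3.51% of absent and 12.2% of shared peaks, in the third 4.38% of absent and 16.3% of shared peaks, and in the fourth 6.53% of 337 absent and 25.0% of 1466 shared peaks. Absent peaks were lower in each of these 4 groups. The intervals cover counting error only and treat peaks as independent, although 55.4% of shared peaks lay within 10 kb of another. Whether intervals overlap was therefore not read as a test. In the strongest group absent peaks were lower too, with 4 of 13 on H3K4me3 (30.8%, 12.7 to 57.6%) against 55.6% of shared peaks. That share rests on 13 peaks. Absent peaks were also lower in each of the 5 groups by width. The overlap was 4.12% of absent and 11.3% of shared peaks in the narrowest, and 15.0% of 60 absent and 47.9% of shared peaks in the widest. Among absent peaks it did not rise steadily with width, as the groups between held 4.23%, 2.86% and 3.19%. Median widths of absent and shared peaks within the weakest score group were 1475 and 1494 bp, and median scores 53.9 and 54.0. In the fourth score group, median scores were 128 for absent and 149 for shared peaks, and median widths 2617 and 2737.5 bp. Median scores in the strongest group were 299 and 528, so the upper groups were not closely matched for score.

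**Figure D5:**
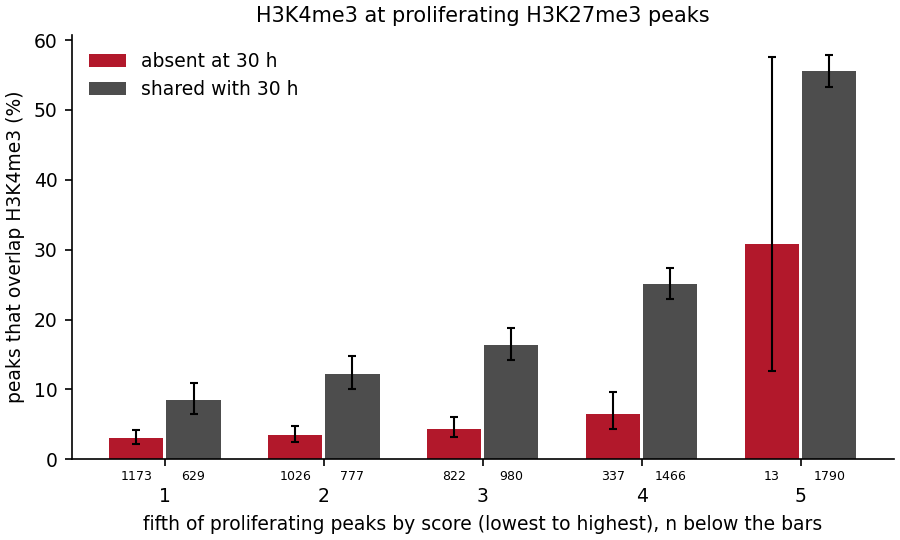
Percent of proliferating H3K27me3 peaks that overlap H3K4me3 (y axis) in 5 equal groups by score (x axis, lowest to highest), absent at 30 h (red) and shared with 30 h (grey), with 95% Wilson intervals and the number of peaks below each bar. Red bars lie below grey bars in each group, with 2.98% against 8.43% in the weakest. The strongest group held 13 absent peaks, and intervals cover counting error only.

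Along the chromosomes, the density of absent peaks varied much less with distance to H3K4me3 than that of shared peaks. On H3K4me3 peaks there were 2.56 middles of absent peaks per Mb and 23.9 of shared peaks. In the first 1 kb beside them the density was 0.949 per Mb for absent peaks and 14.8 for shared peaks, and from 1 to 5 kb it was 0.796 for absent peaks and 5.90 for shared peaks. From there absent peaks became more frequent with distance, reaching 1.49 per Mb at 50 to 100 kb and 1.60 at 100 to 500 kb, while shared peaks dropped to 1.61 and 0.707 per Mb at these distances. Beyond 1000 kb from H3K4me3, 100 absent peaks and 1 shared peak were found. Absent peaks thus had their highest density on H3K4me3 peaks and their lowest 1 to 5 kb away from them.

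The 133 absent peaks on H3K4me3 formed a small set with features of its own. They lay nearer to the 30 h list, at a median of 35.7 kb, than the 3238 others at 198 kb, and 32 of them (24.1%) were within 5 kb of a 30 h peak, against 8.52% of the others. Their median score was 72.4 and their median width 1692 bp, against 66.6 and 1742 bp for the others. H3K4me3 covered a median of 69.6% of an absent peak and 38.0% of a shared peak that it met, but the median overlap was 1156 bp for absent and 1324 bp for shared peaks, whose median width was 3382 bp. Taking a single H3K4me3 peak for each absent peak of this set gave 129 different peaks, with a median width of 1844 bp and a median score of 1495. A single H3K4me3 peak for each shared peak that met any gave 1619, with medians of 1514 bp and 716. H3K4me3 peaks of score 3100 or more were 24.0% of these 129 peaks, 11.2% of those at shared peaks and 47.1% of all H3K4me3 peaks on these chromosomes. On these measures the H3K4me3 peaks at absent peaks lay between those at shared peaks and the whole list.

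The longest overlap with H3K4me3 was at chr17:86012596-86017002, where an absent peak of 4406 bp and score 207 lay wholly inside an H3K4me3 peak of 13738 bp and score 3100. A 30 h peak of 2456 bp lay 396 bp away. The chromosome 12 peak described above came next. At chr13:120277332-120280468, 3136 bp with a score of 304 lay wholly inside an H3K4me3 peak of 4704 bp and low score (243), and no peak of any list lay further along that chromosome. At chr19:57080868-57083609, H3K4me3 of score 3100 covered 2631 of 2741 bp, and the nearest 30 h peak, 127 kb away, was itself of score 3100. At chr10:94876146-94878937, H3K4me3 of score 3100 covered 2499 of 2791 bp, and a 30 h peak lay 1.89 kb away. Whether these regions also stand out in input DNA was not tested.

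Between the weakest and the strongest absent peaks, place also differed with strength, by less than between the highest scores and the rest. Among 5 groups of absent peaks cut by their own score, the weakest lay at a median of 226 kb from the 30 h list and 113 kb from H3K4me3, and the strongest at 139 kb and 74.3 kb. An H3K4me3 peak overlapped 2.82% of the weakest group (1.81 to 4.36%) and 5.63% of the strongest (4.13 to 7.63%). Within 5 kb of a 30 h peak H3K4me3 overlapped 10.4% of absent peaks (7.46 to 14.3%), between 5 and 100 kb 6.73% (5.32 to 8.47%), and beyond 100 kb 1.68% (1.21 to 2.33%), where the median distance to H3K4me3 was 184 kb. H3K4me3 peaks were themselves sparser far from the 30 h list. Stretches of more than 1 Mb without a 30 h peak held 3.34 of them per Mb, against 5.43 to 11.7 per Mb over whole chromosomes. The drop in overlap was therefore not read as a trait of the absent peaks.

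The peaks farthest from the 30 h list lay together in one stretch of chromosome 13 without a 30 h peak, from 79930465 to 92900325, which at 12.97 Mb was the longest such stretch. It held 11 absent peaks, or 0.848 per Mb, and 38 H3K4me3 peaks. The farthest of all was chr13:86074069-86075548, 1479 bp wide with a score of 66.4 and 6.14 Mb from the nearest 30 h peak. It was followed by chr13:86853186-86854732 (score 57.8, 6.05 Mb), chr13:87539025-87541550 (score 87.2, 5.36 Mb), chr13:85179960-85181528 (score 74.0, 5.25 Mb) and chr13:88030689-88032101 (score 53.3, 4.87 Mb). None of these 5 met H3K4me3, which lay between 109 and 1352 kb away. Over the 35 stretches longer than 5 Mb without a 30 h peak, absent peaks numbered 370, or 1.58 per Mb, each stretch held at least 1, and 1 of the 370 overlapped H3K4me3. H3K4me3 peaks were sparse in these stretches, at 1.76 per Mb, against 5.43 to 11.7 per Mb over whole chromosomes.

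Peaks found at 30 h alone differed from those found in proliferating cultures alone. On chromosomes 1 to 19, 10350 peaks at 30 h met no proliferating peak, with a median width of 2810 bp, against 1740 bp for the absent peaks. H3K4me3 overlapped 6.31% of them (5.86 to 6.79%), against 3.95% of the absent peaks, and lay at a median of 27.5 kb, against 97.0 kb. The H3K4me3 list came from proliferating cultures, so for the peaks found at 30 h alone the marks were taken at different times. Wider peaks also meet another list more easily. Widths come from separately called lists, which differed in the same direction as wholes. Their medians on these chromosomes were 3233 bp at 30 h and 2082 bp in proliferating cultures. The depth and threshold of each library cannot be told apart from differences between the cells.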

How the data were processed

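ChIP-seq peak lists for H3K27me3 at 30 h of differentiation, H3K27me3 in proliferating cultures and H3K4me3 in proliferating cultures were analysed, each from 1 library; the 3 inputs were not used here. Per the labels, the submitters' processing notes name Bowtie2 and the build mm9, and according to the methods the authors called peaks with MACS, without model and without lambda for H3K27me3. For MACS, its version, threshold and use of inputs were not given in the sources used here. Scores are the deposited MACS values of peaks, used within a list only. Coordinates are as deposited; whether starts count from 0 or 1 is not given. The depth per library is unknown.

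Peaks were shared if they overlapped by at least 1 bp. Distances are gaps between edges, and intervals of medians come from order statistics. Python 3.11.15, numpy 2.4.6, pandas 2.3.3, scipy 1.17.1 and matplotlib 3.10.9 were used. The number of absent peaks was the same with bedtools 2.31.1. The overlap and distance code was tested on simulated data and recovered 200 of 200 planted overlaps among 1000 peaks. Regions were named by rule: of the absent peaks the 5 widest, the 5 with the highest score, the 5 with the longest H3K4me3 overlap and the 5 nearest to and the 5 farthest from a 30 h peak, and of the shared peaks the 5 with the shortest overlap. The members, settings and rules were chosen with earlier results of these data known. Genes and sequences were not assigned, since the gene tables at hand are of another build. Alternatives covered the overlap, the gap, the length of each list, merging and the chromosomes.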

Additional observations from a re-analysis of the deposited data

Results flagged for a closer look

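Peaks outside chromosomes 1 to 19 were left out of the comparisons above. On chromosome X, 248 of 285 proliferating H3K27me3 peaks had no 30 h peak (87.0%, 95% Wilson interval 82.6 to 90.4%), against 37.4% on chromosomes 1 to 19, and the 30 h list held 142 peaks there. The absent peaks on X had a median width of 1746 bp and a median score of 67.6, close to the 1740 bp and 66.9 of those on chromosomes 1 to 19, and 3 of them overlapped H3K4me3 (1.21%). No label gives the sex of the cells, and its part in this share was not tested. On chromosome Y and its unplaced contig, 15 of 15 proliferating peaks were absent at 30 h, with a median score of 57.1, and the 30 h list held 1 peak. On the other unplaced contigs, 29 of 157 proliferating peaks were absent (18.5%, 13.2 to 25.3%).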

How the results depend on the processing

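No paired analysis was possible because each condition had 1 library. The alternatives were 10 settings; main values were 3371 absent peaks, 37.4% absent, a width of 1740 bp, 185 kb to the 30 h list, 97.0 kb to H3K4me3 and 3.95% on H3K4me3, the widths and distances being medians. With 50% of a peak to be covered, 38.9% were absent, 167 kb from the 30 h list. With peaks within 5 kb counted as shared, 34.0% were absent, at 227 kb and 111 kb, with 3.30% on H3K4me3. With the stronger 50% of the 30 h list, 44.7% were absent, of 1757 bp, at 233 kb and 72.6 kb, with 7.92% on H3K4me3. With the stronger 50% of the proliferating list, 738 were absent (16.2%), of 2308 bp, at 149.9 kb and 74.6 kb, with 5.42% on H3K4me3. With the stronger 50% of both, 1019 were absent (22.4%), of 2286 bp, at 168 kb and 47.9 kb, with 14.8% on H3K4me3. With equal numbers of peaks, 41.9% were absent, at 219 kb and 78.7 kb, with 6.38% on H3K4me3. After merging, 43.0% were absent. Over all chromosomes and contigs, 38.7% were absent, at 208 kb and 104 kb. With the stronger 50% of H3K4me3 peaks, they were 183 kb from H3K4me3 and 1.19% overlapped it, and 2.79% did with 50% of the absent peak to be covered. The other 17 of 51 values stayed within the interval of the main value, or within 1.5 times the main count. Absent peaks overlapped H3K4me3 less often than shared peaks in the main setting and each of the 10 alternatives. Shorter lists change these values by construction; beyond that the cause was not tested. The unknown depth limits each comparison between lists, since a weak peak can fall below the threshold in one library alone.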

Other observations

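Along the proliferating list, absent and shared peaks each formed runs of consecutive peaks. The longest run of absent peaks held 40 peaks, against 57 for shared peaks. Of 1124 runs of absent peaks, 555 were single peaks and 206 runs of 5 or more held 1844 of the 3371 absent peaks, against 374 single peaks among 1118 runs of shared peaks and 369 runs of 5 or more with 4231 of the 5642 shared peaks. The longest run of absent peaks covered 25.9 Mb of chromosome 16, from 60746585 to 86681699, with a median score of 66.0. The same length held 9 peaks of the 30 h list and 67 H3K4me3 peaks. The next held 35 peaks over 12.5 Mb of chromosome 5, from 78422842 to 90971831, with 9 peaks of the 30 h list and 25 H3K4me3 peaks, and then 30 peaks over 11.4 Mb of chromosome 1, from 108793177 to 120175204, with 2 peaks of the 30 h list and 6 H3K4me3 peaks. These 3 runs were chosen after their values were seen.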
